A study of Mus musculus with 121 samples.

Results

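Gonadal adipose tissue of wild-type (WT) C57BL/6 mice was compared between a high-fat diet (HFD, labelled HFD 45%) and standard chow (10% of calories from lipid), by RNA sequencing of polyadenylated transcripts. The members were the WT gonadal libraries with a column in the deposited count table, 8 on HFD and 4 on chow, together 12 of the 121 labelled samples of the series. Diets were given freely from 8 weeks of age for 18 weeks, and the sex of the mice is not stated in the sources used here. Every WT mouse carried the intact gene that the labels call PEP. Heterozygous (HET, 11 HFD and 8 chow) and knockout (KO, 9 HFD and 5 chow) mice of the same strain, on the same diets for the same time, entered the same model and served as separate comparisons. The labels list 5 chow WT mice, of which 1 was not analysed here. The labels number the mice but do not say which of them shared a cage or litter, so the p-values measure the spread between these mice.

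White fat stores triglyceride in adipocytes, which make the hormones leptin and adiponectin. The depot also holds fibroblast-like progenitors, vessels, a mesothelial cover and immune cells. In obesity, macrophages with a lipid-handling and lysosomal programme gather around stressed adipocytes, mast cells are found among the stromal cells, matrix is laid down, and adipocytes lower their own fatty acid synthesis. Because these are bulk tissue libraries, fewer cells of a type and less RNA per cell cannot be told apart.

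Library totals were 5114149 to 6637417 counts. Pepd (prolidase, a peptidase that cuts proline dipeptides), taken here as the gene that the labels call PEP, was at 59.1 to 101 CPM (counts per a fixed total of counts, with library sizes scaled by trimmed-mean factors) in the chow WT libraries and 93.9 to 115 CPM in the HFD WT libraries. HET libraries were at 21.8 to 74.0 CPM and KO libraries at 6.71 to 35.8 CPM, so that 1 HFD HET library lay inside the KO range. Adipocyte genes were abundant in every WT library, with a summed level over 17 markers of 35370 to 84650 CPM. Adipoq (adiponectin) was at 1959 CPM or above in all of them.

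Several WT libraries also held transcripts of neighbouring or unrelated tissues, shown in the plot of other-tissue markers. Chow WT 2 (mouse PEP392) had 14420 summed CPM of 12 epididymis markers, of which 10 had a count, against 1.15 to 17.5 CPM in the other 3 chow libraries. HFD WT 5 and HFD WT 8 had 2079 and 1047 CPM of them. All 8 testis markers had a count in chow WT 2, chow WT 3 (mouse PEP393), HFD WT 2 (mouse PEP360) and HFD WT 5, at 296, 372, 294 and 13.2 summed CPM, and the other 8 libraries were at 1.92 CPM or below. The sperm protamine Prm1 was at 0 in 7 of those 8 libraries and at 0.174 CPM in HFD WT 6. HFD WT 2 had 1382 CPM of 14 skeletal muscle markers against 37.3 to 81.3 CPM elsewhere. Hepatocyte markers, 14 in number, reached 65290 CPM in HFD WT 6 (mouse PEP587), 4816 CPM in HFD WT 1 and 1051 CPM in HFD WT 2, against 66.3 to 159 CPM in chow. The comparison was therefore also fitted without PEP392, PEP360 and PEP587, called the 3 mice below. HET and KO libraries held such transcripts too: chow HET 2, chow HET 5 and chow KO 1 had 344, 217 and 110 summed CPM of testis markers.

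**Figure D1:**
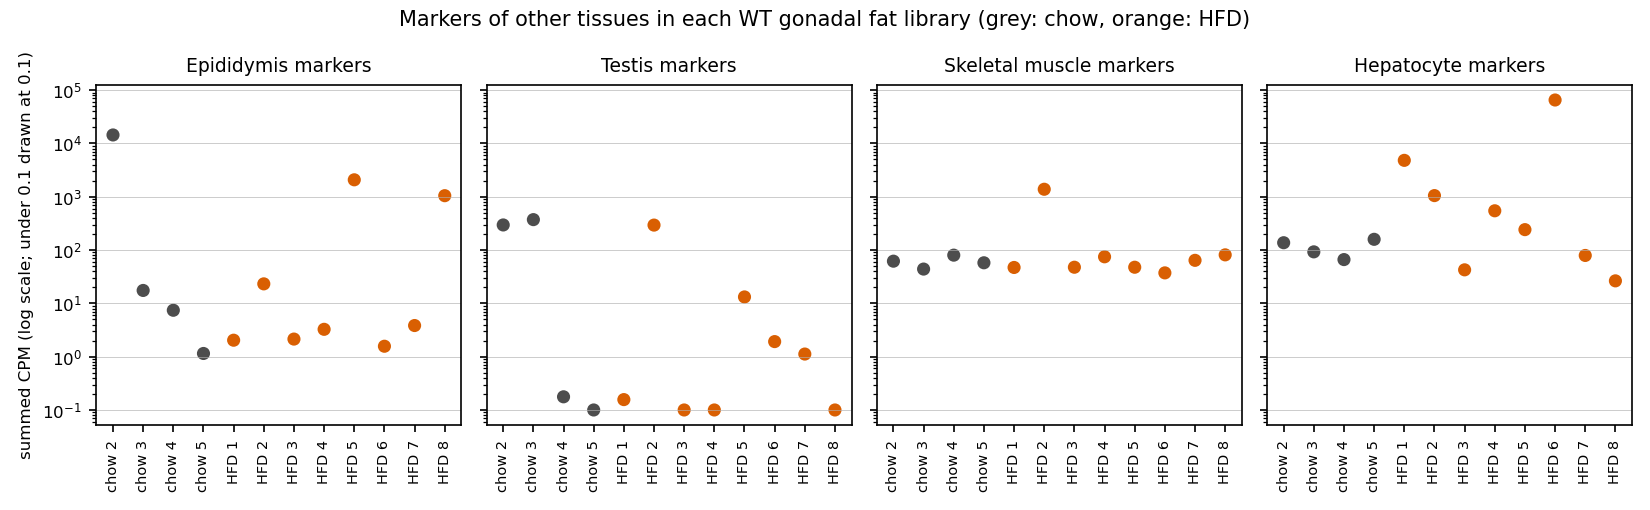
Summed CPM (log axis) of the markers of 4 other tissues, 1 point for each of the 4 chow (grey) and 8 HFD (orange) WT libraries; values under 0.1 CPM are drawn at 0.1. Chow 2 stands at 14420 CPM of epididymis markers, HFD 2 at 1382 CPM of muscle markers and HFD 6 at 65290 CPM of hepatocyte markers, while testis markers are high in chow 2, chow 3 and HFD 2.

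Among genes called higher on HFD both with and without the 3 mice, the highest log2 fold changes were those of Mical2 (an actin-oxidising enzyme, 1.60), Adam12 (a membrane metalloprotease, 1.56), Slc18a2 (a vesicular monoamine transporter, 1.43) and Fam122b (1.24). Of 14536 genes tested, 665 (4.57%) were called at an adjusted p under 0.05 in edgeR's quasi-likelihood test with Benjamini-Hochberg adjustment, 233 higher on HFD (1.6%) and 432 lower (2.97%). Before adjustment 4080 genes (28.1%) had a p under 0.05. Without the 3 mice, 21 genes were higher (0.144%) and 141 lower (0.967%), and 20 higher (0.138%) and 45 lower (0.31%) genes were called both ways. That fit is not free of other tissue. It kept chow WT 3, at 372 summed CPM of testis markers, against at most 13.2 CPM in the HFD libraries kept. The median of the 8 testis markers went from -1.83 with all libraries to -5.17, with 1 called lower. With PEP393 (chow WT 3) left out as well, a choice made after seeing the data, 0 genes were called. The 8 HFD libraries lay above all 4 chow libraries for 101 genes (0.695%) and below them for 88 (0.605%). All of the adjusted p-values lay between 0.01 and 0.05, and the counts moved with single libraries, as the plot of calls with 1 library left out shows. Leaving out chow WT 2 gave 0 higher and 3 lower calls (2674 genes at an unadjusted p under 0.05), chow WT 3 861 and 836, chow WT 4 52 and 354, and chow WT 5 351 and 945. Leaving out HFD WT 1 gave 11 and 33, HFD WT 3 21 and 57, HFD WT 4 450 and 472, HFD WT 7 753 and 822, and HFD WT 8 83 and 180. DESeq2 on all libraries called 778 higher and 549 lower. With only the WT libraries in the edgeR fit, so that the spread came from WT mice alone, 0 genes were called (2695 at an unadjusted p under 0.05).

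**Figure D2:**
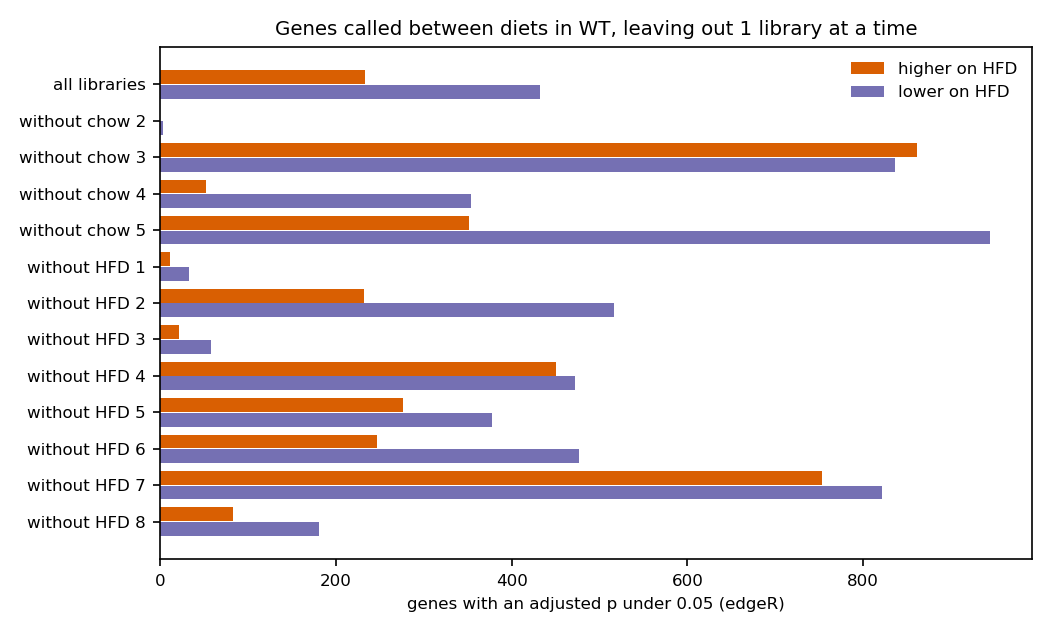
Number of genes called higher (orange) or lower (purple) on HFD in WT gonadal fat, with all libraries and with each of the 12 WT libraries left out. The counts run from 0 higher and 3 lower without chow 2 to 861 higher without chow 3 and 945 lower without chow 5.

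The HET and KO comparisons share no animal with the WT comparison, and many of the WT calls recurred in them. All 3 comparisons use the same estimate of each gene's spread, so their calls are not independent of each other. Of the 233 genes higher in WT, 188 (80.7%) were also called higher in HET and 141 (60.5%) in KO, and 124 (53.2%) were higher in all 3 genotypes. Of the 432 lower genes, 325 (75.2%) were lower in HET, 217 (50.2%) in KO and 170 (39.4%) in all 3. In HET mice 15.6% of all genes were called higher and 18.8% lower, and in KO mice 15% and 20.6%. With the WT shares of 1.6% higher and 2.97% lower, these are the background for the list counts below. The shared calls were 8.29% and 11.9% of the HET calls, and 6.47% and 7.26% of the KO calls. Of the WT calls, 0 were called in the opposite direction in HET, and 1 was in KO. Other tissue also recurred on chow. Epididymis markers summed to 14420 CPM in chow WT 2, 11510 in chow HET 2 and 11440 in chow KO 1, against at most 4751 in any HFD library. Of 8 testis markers, 0 were called lower in WT, 8 in HET and 2 in KO. The part of other tissue in the shared calls was not tested.

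Mast cell genes had the highest median change of the immune lists in WT fat. Mast cells store proteases, histamine and other amines in granules and bind IgE. Of 9 mast cell markers, 5 rose on HFD (Cpa3, Mcpt4, Cma1, Tpsb2 and Fcer1a), against 1.6% of all genes tested. All 9 had a positive log2 fold change, and the median was 2.28 against -0.02 over all genes tested. Leaving out chow WT 2 or HFD WT 1 gave 0 calls, HFD WT 3 1, HFD WT 8 2 and HFD WT 4 or HFD WT 7 7, with medians of 2.06 to 2.44. Promoter sequence (RefSeq, GRCm38.p6, the 250 bases before the start site, on the gene strand) is given for the markers Cpa3 and Fcer1a, and for Slc18a2, a transporter gene of amine-storing granules that is not on the marker list, because all of them rose and each holds the letters AGATAA on one strand, the core of sites for GATA factors. This motif was added after the values were seen. Capitals mark it, as AGATAA or, read on the other strand, TTATCT. Cpa3 lies at chr3:20242182-20242431 (minus strand), Fcer1a at chr1:173227230-173227479 (minus strand) and Slc18a2 at chr19:59260628-59260877 (plus strand).
Cpa3: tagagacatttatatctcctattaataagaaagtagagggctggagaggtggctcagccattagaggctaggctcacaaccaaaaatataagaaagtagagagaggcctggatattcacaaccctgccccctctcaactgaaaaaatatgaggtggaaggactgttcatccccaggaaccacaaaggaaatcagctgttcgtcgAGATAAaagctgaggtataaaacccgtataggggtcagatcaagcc
Fcer1a: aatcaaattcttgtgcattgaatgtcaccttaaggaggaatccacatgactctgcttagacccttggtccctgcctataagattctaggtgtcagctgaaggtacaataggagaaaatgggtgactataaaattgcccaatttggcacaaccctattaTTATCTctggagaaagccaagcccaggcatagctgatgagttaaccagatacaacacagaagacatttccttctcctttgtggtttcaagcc
Slc18a2: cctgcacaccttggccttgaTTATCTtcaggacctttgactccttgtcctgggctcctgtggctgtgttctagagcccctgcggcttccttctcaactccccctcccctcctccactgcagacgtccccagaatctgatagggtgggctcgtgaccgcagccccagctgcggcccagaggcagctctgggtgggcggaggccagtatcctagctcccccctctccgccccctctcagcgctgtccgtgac
The motif ends 40 bases before the start of Cpa3, 86 bases before that of Fcer1a and 224 bases before that of Slc18a2. Of the 9 mast cell markers, 7 had a promoter in the table, and 3 of those 7 genes (Cpa3, Fcer1a and Ms4a2) held AGATAA on either strand, as 37.5% of their 8 promoters, against 9.99% of all 32851 promoters. The promoters of Cma1 and Mcpt4 do not hold these letters. Over the other gene lists the share of promoters with AGATAA ran from 0% (such as adipogenic regulators) to 50% (eosinophil markers, 4 promoters). For macrophage markers it was 25%. Of the mast cell promoters, 0 held TCACNCCAC (sterol response element), CACGTG (E box) or GAGGAAGT (PU.1), and 1 held CCAAT, on either strand. Over all promoters these were in 1.05%, 6.02%, 2.44% and 33.8%. A match describes the letters only.

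Cpa3 (carboxypeptidase A3, a granule protease; chr3:20215620-20242181) was at 4.00, 7.70, 6.89 and 6.72 CPM in the chow libraries. On HFD it ranged from 6.56 through a median of 27.8 to 59.5 CPM. Libraries HFD WT 4 (7.74 CPM) and HFD WT 7 (6.56 CPM) were at the chow level and the other 6 were at 14.8 CPM or more. The log2 fold change was 2.16 ± 0.48 (SE; adjusted p = 0.0212 by edgeR), a 4.47-fold higher level.

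Genes of chymases and a tryptase, which are stored in the same granules, rose as well. Mcpt4 (a chymase; chr14:56059629-56062313) was at 3.27, 10.8, 9.54 and 5.90 CPM on chow and at 5.70 to 68.4 CPM, median 41.6, on HFD, a log2 fold change of 2.37 ± 0.60 (edgeR adjusted p = 0.0286). Cma1, a second chymase, rose by 2.28 ± 0.60 (adjusted p = 0.0307) and the tryptase gene Tpsb2 by 2.17 ± 0.60 (adjusted p = 0.0364). Mcpt4 and Cma1, and Tpsb2 and Tpsab1, are related members of their families, so short reads that match more than 1 gene may have been lost or misassigned. In these 3 genes HFD WT 4 and HFD WT 7 lay within the chow range and the other 6 HFD libraries above it.

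Fcer1a, the IgE-binding chain of the high-affinity receptor, was chosen for mention after its values were seen. It was at 0.328 to 0.592 CPM on chow and at 0.320 to 5.80 CPM, median 2.54, on HFD (log2 fold change 2.65 ± 0.75, adjusted p = 0.0375). The remaining 4 markers did not pass the test. Ms4a2, another chain of that receptor, had a log2 fold change of 2.73 ± 0.91 (adjusted p = 0.0609), Tpsab1 2.70 ± 0.87 (adjusted p = 0.0562), Hdc (histidine decarboxylase, which makes histamine) 1.07 ± 0.51 (adjusted p = 0.158) and Kit (the stem cell factor receptor) 0.26 ± 0.17 (adjusted p = 0.324).

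Slc18a2, the vesicular transporter that loads monoamines into granules, separated the diets completely. It was at 1.82, 1.48, 1.77 and 1.64 CPM on chow and at 6.58, 6.96, 4.08, 2.65, 3.86, 4.36, 2.08 and 5.75 CPM on HFD. The log2 fold change was 1.43 ± 0.29 (adjusted p = 0.0128), and 1.35 without the 3 mice (adjusted p = 0.0372). Il1rl1, a receptor for interleukin 33 found on mast cells, innate lymphoid cells and regulatory T cells, was at 5.27, 10.96, 8.48 and 11.3 CPM on chow and at 14.4 to 25.3 CPM, median 17.8, on HFD. All 8 HFD libraries were above the chow libraries (log2 fold change 1.03 ± 0.24, adjusted p = 0.0215). It was the 1 gene called among 26 tested T and NK cell markers, and its log2 fold change was 0.86 without the 3 mice (adjusted p = 0.0971).

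No mast cell marker was called without the 3 mice, where the median of the list was 1.83 and the log2 fold changes were 1.83 for Cpa3 (adjusted p = 0.0902), 1.86 for Mcpt4 (adjusted p = 0.159), 1.78 for Cma1 (adjusted p = 0.187) and 1.70 for Tpsb2 (adjusted p = 0.213). Within the mice with label numbers below 450 (2 chow and 4 HFD libraries) the median was 2.57 and within those above 450 (2 chow, 4 HFD) it was 1.84. Without all libraries high in other-tissue markers it was 0.893, a set of libraries chosen after seeing the data. Of the WT libraries, that fit left out chow WT 2 and 3 and HFD WT 1, 2, 5, 6 and 8. The HFD WT libraries kept were HFD WT 3, HFD WT 4 and HFD WT 7, at 155, 59.3 and 67.5 summed CPM of mast cell markers. The part of other-tissue RNA in the mast cell values was not tested. In HET mice 7 of the 9 rose (15.6% over all genes), with a median of 2.01. In KO mice Cpa3 and Mcpt4 rose (15% over all genes) and Hdc fell (20.6%), with a median of 1.23. Cpa3 was 1.90 ± 0.35 higher in HET (adjusted p = 0.00011) and 1.12 ± 0.42 higher in KO (adjusted p = 0.034).

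**Figure D3:**
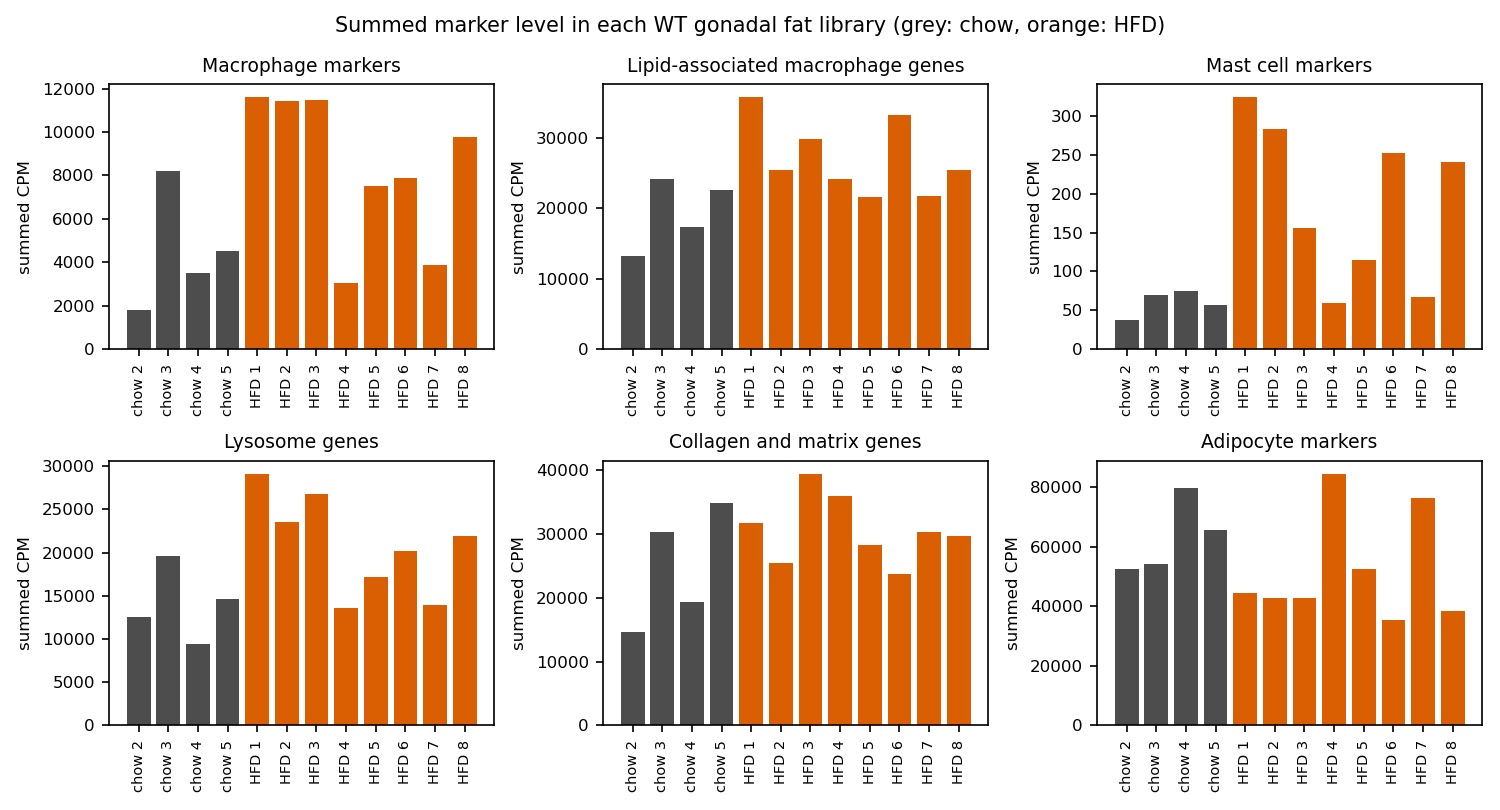
Summed CPM of 6 gene lists in each of the 4 chow (grey) and 8 HFD (orange) WT libraries, each panel starting at 0. Mast cell markers reach 325 CPM in HFD 1 and stay at 59.3 and 67.5 CPM in HFD 4 and HFD 7, close to the chow libraries (36.7 to 75.1 CPM). Macrophage markers in chow 3 (8217 CPM) lie inside the HFD range.

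Macrophage markers were higher on HFD in most mice, but 0 of 24 tested passed the test in WT. Their summed level was 1814, 8217, 3499 and 4517 CPM on chow and 11610, 11410, 11460, 3052, 7524, 7862, 3856 and 9748 CPM on HFD. Chow WT 3 lay among the HFD mice, and HFD WT 4 and HFD WT 7 among the chow mice. Of the 24 genes, 22 had a positive log2 fold change, with a median of 0.862. Leaving out chow WT 3 gave 13 calls of 24, all higher, with a median of 1.30. The number was 7 without HFD WT 7, 5 without HFD WT 4 and 1 without HFD WT 5. It stayed at 0 without any other WT library, with medians down to 0.599 (without chow WT 2). Without the 3 mice it was also 0, with a median of 0.514. DESeq2 called 7 of them on all libraries. In HET mice 21 of 24 rose (median 1.46), against 15.6% of all genes tested. In KO mice 3 rose and 4 fell (median 0.0712), near the shares over all genes, 15% and 20.6%.

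Adgre1 (the macrophage surface marker F4/80) was at 36.9, 231, 66.8 and 105 CPM on chow and at 80.9 to 497 CPM, median 315, on HFD, and its log2 fold change was 1.41 ± 0.48 (adjusted p = 0.0645). For Cd68, an endosomal glycoprotein, chow libraries were at 53.1 to 452 CPM and HFD libraries at 107 to 728 CPM (1.20 ± 0.48, adjusted p = 0.102). Both genes had their highest chow value in chow WT 3.

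Genes of lipid-associated macrophages, which take up and digest lipid, showed the same layout. All 20 had a positive log2 fold change (median 1.11), and 1 was called. Itgax (CD11c, an integrin of fat-tissue macrophages in obesity; chr7:128129547-128150657) was at 15.1, 203, 18.9 and 81.8 CPM on chow. On HFD it was at 69.2, 97.7, 215, 308, 355.9, 410 and 419 CPM in 7 libraries and higher still in HFD WT 1, so that 6 of 8 libraries were above all chow libraries (log2 fold change 1.91 ± 0.59, adjusted p = 0.0501). Gpnmb, a lysosomal membrane glycoprotein, was at 78.03, 1015, 71.4 and 369 CPM on chow and 158 to 4092 CPM on HFD (2.05 ± 0.72, adjusted p = 0.0688). Spp1 (osteopontin) was 2.33 ± 0.81 (adjusted p = 0.0677), Trem2 (a lipid receptor) 1.41 ± 0.59 (adjusted p = 0.114) and Mmp12 (macrophage elastase) 1.93 ± 0.78 (adjusted p = 0.101). Without chow WT 3, 16 of the 20 were called higher, with a median of 1.65, and 12 and 6 without HFD WT 7 and HFD WT 4. The number was 0 without chow WT 2, chow WT 4, HFD WT 1, HFD WT 3 or HFD WT 8. It was also 0 without the 3 mice, where the median was 0.842, and 1 or 2 without any other WT library. DESeq2 on all libraries called 14. In HET mice 18 of 20 rose (15.6% over all genes) and in KO mice 16 rose (15%) and 1 fell (20.6%). The test of the difference between the WT and HET diet effects called 0 of all 14536 genes (0%), with 824 (5.67%) below 0.05 before adjustment. DESeq2 called 5. Macrophage genes are thus not shown to differ in their diet effect between WT and HET fat, nor to be alike.

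The 1 called gene of that list was Fabp5, a fatty acid-binding protein of macrophages and adipocytes. It was at 47.1, 99.6, 53.6 and 93.8 CPM on chow and at 93.1 to 206 CPM, median 127, on HFD (0.82 ± 0.25, adjusted p = 0.0437), and was not called without the 3 mice (0.75, adjusted p = 0.176). It was higher in HET (0.60 ± 0.18) and KO (1.43 ± 0.23) as well.

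Resident macrophage genes moved the other way, as far as any passed the test. Of 17 markers, 3 fell, against 2.97% of all genes: Cd209g and Cd209f (C-type lectins) and Fcna (ficolin A, a lectin of the complement system). The list median was -0.184. Cd209g was at 16.01, 12.4, 55.1 and 11.97 CPM on chow and at 4.53 to 15.996 CPM, median 7.26, on HFD. It fell by 1.47 ± 0.33 on the log2 scale (adjusted p = 0.0212), and by 1.51 without the 3 mice (adjusted p = 0.0375). Fcna was at 63.5, 49.4, 78.5 and 35.7 CPM on chow and 18.7 to 41.1 CPM on HFD, and fell by 0.87 ± 0.25 (adjusted p = 0.0393). Cd209f fell by 1.22 ± 0.32 (adjusted p = 0.0311). Neither Fcna (-0.85, adjusted p = 0.149) nor Cd209f (-1.23, adjusted p = 0.0869) was called without the 3 mice. Chow WT 4 had the highest value of all 3, at 131 CPM for Cd209f against 29.8 to 39.3 CPM in the other chow libraries. Without it the log2 fold changes of Cd209g and Cd209f were -0.64 and -0.42, and neither was called. In HET and KO mice all 3 genes were lower, by 0.91 to 1.39 on the log2 scale. Lyve1 and Timd4, which also mark resident cells, had log2 fold changes of -0.06 ± 0.32 and -0.61 ± 0.36 (adjusted p = 0.923 and 0.258).

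Lysosome genes, which encode the acid hydrolases and membrane proteins of the digestive organelle, were mostly higher. Of 26, 23 had a positive log2 fold change (median 0.581) and 2 rose, Lamp2 and Npc1, against 1.6% of all genes. Without chow WT 3 the number was 16. It was 9 without HFD WT 7, 5 without HFD WT 4, 4 without HFD WT 5, and 0 without chow WT 2, chow WT 4, HFD WT 1, HFD WT 3 or HFD WT 8, and also without the 3 mice, where the median was 0.43. Lamp2 (a lysosomal membrane protein) was at 225, 215, 140 and 213 CPM on chow and at 213 to 375 CPM on HFD (0.62 ± 0.16, adjusted p = 0.031). Npc1 (which exports cholesterol from lysosomes) was at 53.6 to 82.2 CPM on chow and 63.1 to 146 CPM on HFD (0.72 ± 0.20, adjusted p = 0.0341). The log2 fold changes without those mice were 0.65 for Lamp2 (adjusted p = 0.0869) and 0.55 for Npc1 (adjusted p = 0.219). In HET mice 21 of the 26 rose (15.6% over all genes), and in KO mice 17 rose (15%) and 2 fell (20.6%).

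A further pair of genes of the endosome and lysosome were among the 12 highest called both with and without the 3 mice. Arsb (arylsulfatase B, which trims sulfated sugar chains; chr13:93771630-93943016) was at 54.0, 74.3, 76.7 and 67.2 CPM on chow and at 101, 123, 114, 129, 100, 96.1, 94.1 and 104 CPM on HFD. Its log2 fold change was 0.66 ± 0.13 (adjusted p = 0.0128), and every HFD library was above every chow library. Sppl2a (an intramembrane protease of lysosomes; chr2:126890391-126933235) was at 45.2 to 58.9 CPM on chow and 64.1 to 88.9 CPM on HFD, again without overlap (0.65 ± 0.13, adjusted p = 0.0128). Arsb was higher in HET (0.38 ± 0.10) and KO (0.84 ± 0.12) fat, whereas Sppl2a was 0.46 ± 0.09 in HET and 0.11 ± 0.11 in KO, and its WT diet effect was larger than that in KO by 0.54 (adjusted p of the difference 0.0438).

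Collagen and matrix genes had a median log2 fold change of 0.372, with 32 of 35 positive and 3 called higher, against 1.6% of all genes. The number called ran from 0 (without chow WT 2, chow WT 4, HFD WT 1 or HFD WT 3) to 5 (without chow WT 3 or HFD WT 7). Postn (periostin, a matrix protein of remodelling tissue; chr3:54361109-54391037) was at 101, 163, 104 and 137 CPM on chow and at 403, 283, 347, 407, 229, 164, 250 and 284 CPM on HFD. The diets did not overlap, though HFD WT 6 was level with the highest chow library (1.23 ± 0.31, adjusted p = 0.0285). Col6a3, the collagen VI chain from which endotrophin is cut, was at 143, 361.4, 159 and 405 CPM on chow and 327 to 758 CPM on HFD (1.06 ± 0.30, adjusted p = 0.0366). Lum (lumican, which spaces collagen fibrils) was at 32.7 to 116 CPM on chow and 82.9 to 380 CPM on HFD (1.43 ± 0.44, adjusted p = 0.0497). Without the 3 mice 0 of the 35 were called (median 0.351), with log2 fold changes of 1.25 for Postn (adjusted p = 0.0713), 0.96 for Col6a3 (adjusted p = 0.132) and 1.25 for Lum (adjusted p = 0.215). For Col1a1, the main fibrillar collagen chain, the log2 fold change was 0.20 ± 0.43 (adjusted p = 0.79). In KO mice 20 of the 35 rose (15% over all genes) and 1 fell (20.6%), and in HET mice 9 rose (15.6%) and 1 fell (18.8%). Col6a3 was higher in both (0.80 ± 0.22 and 1.67 ± 0.28), Postn in KO (1.55 ± 0.29) and Lum in HET (1.57 ± 0.33).

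Proteases that act on matrix went in both directions. Adam12, a membrane metalloprotease of fibroblasts and fat progenitors, was at 13.8, 22.9, 17.1 and 18.7 CPM on chow and at 21.6 to 94.7 CPM, median 52.8, on HFD, a 2.94-fold higher level (log2 fold change 1.56 ± 0.33, adjusted p = 0.0179), and it stayed called without the 3 mice (1.55, adjusted p = 0.0384). Mmp19 rose (0.86 ± 0.24, adjusted p = 0.0374). Mmp9, a gelatinase of neutrophils and other cells, was at 41.8, 15.0, 55.0 and 11.8 CPM on chow and at 2.82 to 14.6 CPM, median 5.58, on HFD. It fell by 2.09 ± 0.41 on the log2 scale (adjusted p = 0.0128), and 6 of 8 HFD libraries were below all chow libraries. Neither Mmp9 (-1.80, adjusted p = 0.0508) nor Mmp19 (0.72, adjusted p = 0.183) was called without the 3 mice. Of the 15 tested genes of the matrix protease list, which does not hold Adam12, 1 rose and 1 fell, and the median was 0.479. All 3 genes moved the same way in HET and KO mice, with Mmp9 at -1.28 ± 0.32 and -1.79 ± 0.37.

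Among adipocyte genes, enzymes and hormones did not move as a block. Acaca (acetyl-CoA carboxylase 1, which makes the building block for fatty acid synthesis; chr11:84129672-84401651) was at 181, 108, 263 and 212 CPM on chow and at 59.1 to 115 CPM, median 78.1, on HFD. It fell by 1.18 ± 0.28 on the log2 scale (adjusted p = 0.0225), and 6 of 8 HFD libraries were below all chow libraries. Without the 3 mice the log2 fold change was -1.17 and was not called (adjusted p = 0.070). It was the 1 call among 20 lipogenesis genes, whose median was -0.117, against 2.97% of all genes called lower. Fasn (fatty acid synthase) was at 3835, 3333, 4427 and 7169 CPM on chow and 1577 to 4775 CPM on HFD, with a log2 fold change of -0.77 ± 0.40 (adjusted p = 0.203). Acly (ATP citrate lyase) was -0.53 ± 0.27 (adjusted p = 0.201) and Scd1 (stearoyl-CoA desaturase) -0.09 ± 0.42 (adjusted p = 0.91). In HET mice 10 of the 20 fell (18.8% over all genes), with Acaca at -1.90 ± 0.22 and Fasn at -1.81 ± 0.31. In KO mice 7 rose (15% over all genes) and 0 fell (20.6%), Acaca was -0.19 ± 0.26 and Fasn 1.13 ± 0.39. The WT diet effect on Fasn was lower than that in KO by 1.90 (adjusted p of the difference 0.0328).

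Cfd (adipsin, a complement protease secreted by adipocytes; chr10:79890853-79892655) was the 1 call among 17 adipocyte markers, whose median was -0.38. It was at 2970, 1667, 12549 and 1549 CPM on chow and at 370, 539, 390, 1029, 1216, 633, 4030 and 539 CPM on HFD. Only HFD WT 7 reached the chow range, and the log2 value fell by 2.10 ± 0.62 (adjusted p = 0.0428). This value was -2.06 without the 3 mice and was not called (adjusted p = 0.144). Cfd was also lower in HET (-2.92 ± 0.50) and KO (-3.27 ± 0.58) mice. Without chow WT 4, which had the 12549 CPM, the log2 fold change was -0.91 and was not called.

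Lep (leptin), a hormone that rises with fat mass, was at 1557, 4307, 1074 and 6724 CPM on chow and at 2705 to 6647 CPM, median 4309, on HFD. The 4 chow mice spanned the whole HFD range, and the log2 fold change was 0.34 ± 0.51 (adjusted p = 0.696). Mest, a marker of fat expansion, was at 160, 537, 92.1 and 514.4 CPM on chow and 447 to 603 CPM on HFD (0.72 ± 0.56, adjusted p = 0.404). Chow WT 2 and chow WT 4 were low in both genes, and chow WT 3 and chow WT 5 were at HFD levels. Sfrp5 and Npr3, from the same expansion set, had log2 fold changes of 0.20 ± 0.57 and 0.02 ± 0.40. Adipoq was -0.24 ± 0.35, Plin1 (perilipin, on the lipid droplet) -0.47 ± 0.31 and Pparg (the adipocyte transcription factor) -0.38 ± 0.27, and none of these passed the test. Adrb3, the beta-3 adrenergic receptor, was at 734, 272, 1723 and 512 CPM on chow and at 69.4 to 774 CPM, median 118, on HFD (-1.70 ± 0.64, adjusted p = 0.0827).

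Cpt1a (carnitine palmitoyltransferase 1A, which admits long-chain fatty acids to mitochondria; chr19:3322334-3385733) rose from 129, 222, 142 and 151 CPM on chow to 200 to 416 CPM, median 261, on HFD. Its log2 fold change was 0.80 ± 0.15 (adjusted p = 0.0128) and 0.60 without the 3 mice (adjusted p = 0.0403). The highest value, 416 CPM, was in HFD WT 6, the library with 65290 CPM of hepatocyte markers, and without that library the log2 fold change was 0.70 and still called. Cpt1a was the 1 call among 21 tested fatty acid oxidation genes (median 0.292), and it was 0.80 ± 0.11 higher in HET and 0.74 ± 0.14 higher in KO. Subunits of oxidative phosphorylation had 0 calls of 35 and a median of -0.15, with 31 negative. In HET 32 of the 35 fell, against 18.8% of all genes, but the WT minus HET difference was called for 0 genes.

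The 12 genes with the highest fold changes called both ways also included Mical2, Fam122b, Cpeb4, Armcx4, Uba6, Adcy9 and Wdr7. Mical2 (an enzyme that oxidises actin) was at 3.46, 11.8, 4.77 and 7.87 CPM on chow and at 11.2 to 32.7 CPM, median 19.6, on HFD, the largest of the 12 (log2 fold change 1.60 ± 0.32, adjusted p = 0.0128). Fam122b was at 3.54 to 7.25 CPM on chow and 7.68 to 21.4 CPM on HFD, without overlap (1.24 ± 0.26). Cpeb4 (which binds the tails of messenger RNAs and controls their translation) was at 20.5 to 31.2 CPM and 35.5 to 69.8 CPM, also without overlap (0.91 ± 0.21). Armcx4 (0.86 ± 0.20), Uba6 (a ubiquitin-activating enzyme, 0.84 ± 0.21), Adcy9 (an adenylyl cyclase, 0.83 ± 0.20) and Wdr7 (a partner of the vacuolar proton pump, 0.56 ± 0.12) completed the set. All 12 had the same sign below and above mouse number 450 and with any WT library left out, and 0 of the 12 stayed called in every such fit.

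**Figure D4:**
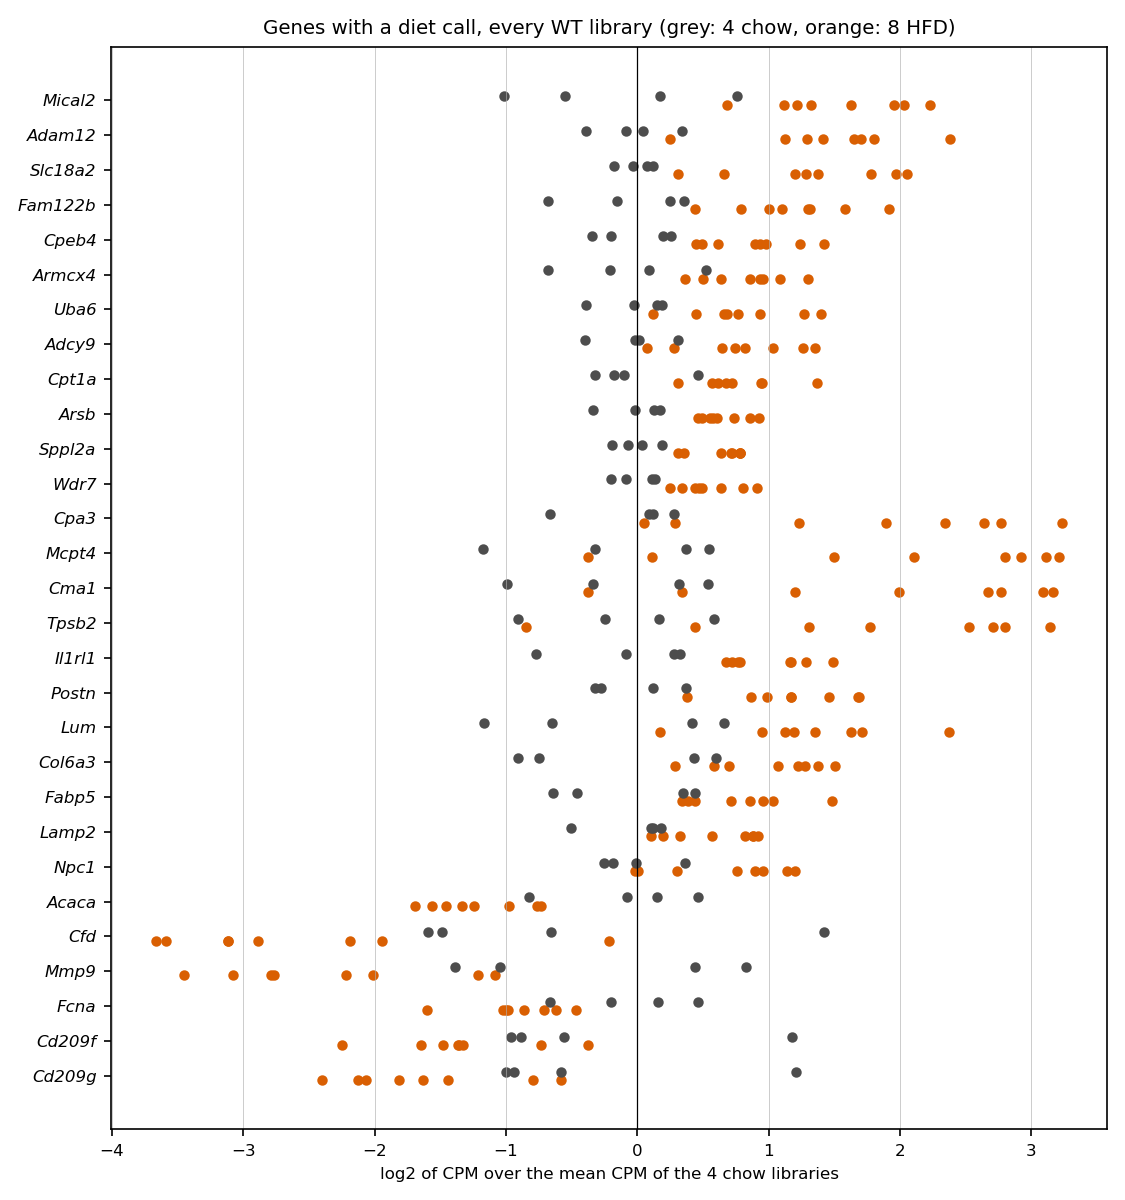
Each WT library's CPM over the mean of the 4 chow libraries (log2 axis) for 29 genes called between the diets; grey points are the 4 chow libraries and orange points the 8 HFD libraries. Slc18a2, Fam122b, Cpeb4, Arsb, Sppl2a, Wdr7, Il1rl1 and Postn do not overlap between diets, while each mast cell protease has 1 or 2 HFD libraries inside the chow range.

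The genes with the largest falls called both with and without the 3 mice were mostly low on both diets and high in chow WT 3. Kif17 (a kinesin motor) was at 42.6, 30.5, 2.47 and 1.31 CPM on chow and at 0.47 to 11.9 CPM, median 1.02, on HFD (-2.96 ± 0.80, adjusted p = 0.033). Tsks (a substrate of testis-specific kinases) was at 4.73, 22.7, 4.59 and 2.30 CPM on chow and 1.22 to 7.63 CPM on HFD (-1.65 ± 0.48, adjusted p = 0.0419). In chow WT 3 Ccdc116 was at 22.7 CPM, Tulp2 at 54.2, Fam221b at 26.8, Trim17 at 23.7, Best1 at 23.4, Creb3l4 at 29.2, Zfp428 at 12.7 and Iqch at 10.7 CPM. The highest HFD value of each of these 8 genes was in HFD WT 2, at 2.98 to 13.3 CPM. Chow WT 3 and HFD WT 2 are 2 of the 4 libraries with all 8 testis markers. The fit without the 3 mice kept chow WT 3 and left out HFD WT 2. In it Ccdc116 went from -2.55 to -4.23 and Tulp2 from -2.54 to -4.25, and the other genes named here fell further too. The call without the 3 mice is therefore no guard against testis RNA in these genes, and its part was not tested. Without chow WT 3 the log2 fold change was 0.70 for Ccdc116, 0.79 for Tulp2 and 0.56 for Creb3l4, and it remained negative for the other 9, from -0.17 for Fam221b to -2.59 for Kif17. Without PEP392, PEP393, PEP360 and PEP587, a choice made after seeing the data, 10 of the 12 were negative.

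Of the 12 lowest genes, Cd209g is described above, and Nrip2 had another layout. Nrip2 (a nuclear receptor interacting protein) was at 5.82, 41.5, 10.4 and 47.4 CPM on chow and at 5.64 to 16.3 CPM on HFD (-1.52 ± 0.38, adjusted p = 0.0271). Chow WT 3 and chow WT 5 were both high, the latter with 0 summed CPM of testis markers. Nrip2 was called without chow WT 2 and lost the call without chow WT 5, HFD WT 1 or HFD WT 3.

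Further calls sat beside a single library. Gpx3 (a plasma glutathione peroxidase) was at 7579, 483, 1402 and 475 CPM on chow and at 235 to 518.1 CPM on HFD. It fell by 2.65 ± 0.50 (adjusted p = 0.0128) and by 0.98 without the 3 mice (adjusted p = 0.327), and its highest value was in chow WT 2. Nqo1 (a quinone reductase) was at 95.5 CPM in chow WT 2 and 5.83 to 11.4 CPM in the other 11 libraries, with a log2 fold change of -1.80 ± 0.53 with all libraries and 0.00 without the 3 mice. Of 20 antioxidant genes these were the 2 called, and the list median was -0.0301. Tnni2 and Tnnt3 (troponins of fast muscle fibres) reached 72.1 and 212 CPM in HFD WT 2, against at most 1.97 and 3.61 CPM elsewhere. Ucp1 (the uncoupling protein of brown fat) was at 69.2 CPM in HFD WT 2, 5.75 CPM in HFD WT 8 and at most 1.43 CPM in the others (5.74 ± 1.71, adjusted p = 0.0438, and 3.16 with adjusted p = 0.317 without the 3 mice). Without HFD WT 2 the log2 fold changes of Tnni2, Tnnt3 and Ucp1 were 0.55, -0.16 and 2.95, and none was called. Cideb (a lipid droplet protein of liver) was at 30.7 CPM in HFD WT 6 and at most 2.66 CPM elsewhere, and its log2 fold change went from 3.34 to 1.29 without that library.

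Of 6 tested neutrophil markers 1 was called, Mmp9, which fell (list median -1.49). Il1rl1, described above, was the 1 call among 26 T and NK cell markers. The other stromal and immune markers named in this paragraph were not called in WT. Pdgfra (fibroblast-like progenitors) was 0.85 ± 0.31 (adjusted p = 0.0753), Mki67 (dividing cells) 1.08 ± 0.41 (adjusted p = 0.0826), Tnf 0.64 ± 0.42, Cd3e (T cells) 0.65 ± 0.56, Pecam1 (endothelium) -0.02 ± 0.20, Msln (mesothelium) -0.54 ± 0.53 and Saa3 (an acute-phase protein) -0.36 ± 0.80. Of 24 cell cycle genes 23 had a positive log2 fold change (median 0.577) and 0 were called. The number was 14 without chow WT 3, 3 without HFD WT 7 and 1 without HFD WT 4. It was 0 without any other WT library, and without the 3 mice, where the median was 0.419. Plasma cell markers summed to 18230 CPM in HFD WT 2 and to 1646 to 3895 CPM in the other libraries, and 0 of 12 were called. Ccl2 and Timp1 are listed at 0 in every gonadal library, as are B2m and Aldoa, genes that most cells use.

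The HET and KO diet effects on the called genes are set beside those of WT in the plot of diet effects by genotype. Slc18a2 was 0.82 ± 0.21 in HET and 0.46 ± 0.25 in KO, Cpeb4 0.74 ± 0.15 and 0.83 ± 0.19, Mical2 1.52 ± 0.24 and 1.37 ± 0.28, and Il1rl1 0.75 ± 0.18 and 1.32 ± 0.22. The difference between the WT and KO diet effects was called for 920 genes (6.33%), with a higher WT effect for 677 (4.66%) and a lower one for 243 (1.67%). That share was 18.2% without chow KO 3, 2.08% without chow KO 4, 3.18% without chow KO 5, 2.81% without chow WT 5 and 4.03% without chow WT 3. It was 0% (2437 genes unadjusted) without PEP392, PEP393, PEP360 and PEP587.

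**Figure D5:**
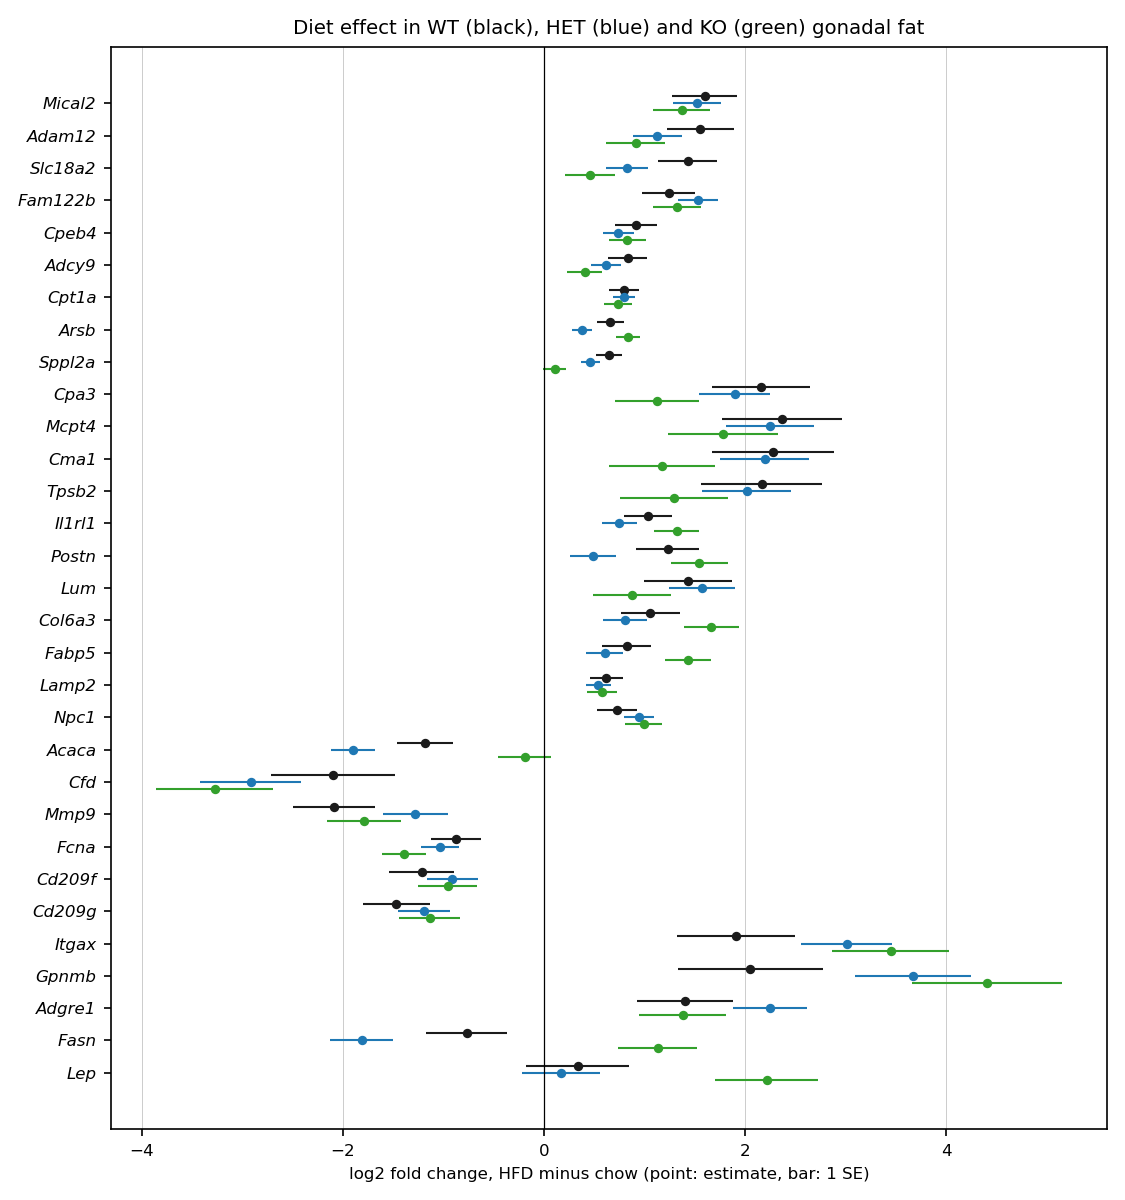
Log2 fold change of HFD minus chow with 1 SE in WT (black; 8 HFD, 4 chow), HET (blue; 11 HFD, 8 chow) and KO (green; 9 HFD, 5 chow) gonadal fat. Most genes called in WT have the same sign in the other genotypes, Acaca is near 0 in KO (-0.19), and Itgax, Gpnmb, Adgre1, Fasn and Lep, at the bottom, were not called in WT.

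Called genes differed in length from the rest. The median exonic length was 6931 bases for the 233 higher genes and 3586 bases for the 432 lower genes, against 4299 bases over the tested genes. For the 20 and 45 genes called both ways it was 7819 and 3331 bases. The part of transcript length or RNA integrity in the calls was not tested.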

How the data were processed

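The authors' deposited table gives raw read counts per Ensembl gene, used for 45 labelled gonadal libraries. STAR 2.5.1b, featureCounts 1.5 and build GRCm38.p5 come from the submitters' processing notes, which state no strand option, annotation release or filter, so overlapping and antisense genes may share reads. Stranded mRNA libraries were read as single 50-base reads, per the labels' protocols. An unlabelled column (1) was left out. Symbols came from GENCODE M21 (25723 of 25759 genes).

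edgeR 4.0.16 in R 4.3.3 was fitted to all 45 libraries with 1 coefficient for each diet and genotype, after filterByExpr (minimum count 10, total 15) and trimmed-mean scaling, so the groups share 1 estimate of the spread. Calls use a Benjamini-Hochberg adjusted p under 0.05 over 14536 genes. The SE is the log2 fold change over the square root of F. CPM values are not scaled by length. Libraries of a group differed by more than sampling noise (163 pairs, smallest variance ratio 3.9). In counts simulated for the WT comparison over these 14536 genes, 70% of 100 genes changed 2-fold and 93% of 100 genes changed 4-fold were recovered. The changed genes were drawn only from those above a minimum mean count. The simulation held no other-tissue RNA and no differences in cell content between mice, so it cannot give the recovery in the real libraries. Alternatives were DESeq2 1.42.0, other scaling, filters and thresholds, a replicate block, a term for label numbers below or above 450, and left-out libraries.

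Named genes are the 12 highest and 12 lowest called with and without the 3 mice, up to 4 called members of each list, a set of markers (1 of them is not reported here), and up to 5 genes each way for each difference of diet effects. Members and lists were chosen with earlier results of these data known. Promoters were read from RefSeq, GRCm38.p6.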

Additional observations from a re-analysis of the deposited data

Results flagged for a closer look

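In groups of 4 chow and 8 HFD WT libraries, 206 sets of values were examined for a sample far from the others of its group, and 46 (22.3%) held one. The rule's rate of about 1 in 20 is for independent values with a normal spread. These were CPM values without a log, many of genes chosen for large fold changes, so the rates cannot be compared. HFD WT 2 accounted for 18 of the 46. It was highest on HFD in Kif17 (11.9 CPM), Ccdc116 (5.47), Tulp2 (13.3), Fam221b (7.46), Trim17 (5.47), Best1 (5.97), Zfp428 (2.98), Creb3l4 (6.80), Tsks (7.63) and Iqch (5.14), and in Ucp1 (69.2), Tnni2 (72.1) and Tnnt3 (212). The antibody genes Igkv8-18 (14.1) and Ighe (0.498) were highest in it as well. Its summed markers stood apart for testis (293.9 CPM), skeletal muscle (1382 CPM) and plasma cells (18230 CPM).

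Chow WT 3 stood apart in 9 sets: Ccdc116 (22.65 CPM), Tulp2 (54.2), Fam221b (26.8), Trim17 (23.7), Best1 (23.4), Creb3l4 (29.2), Tsks (22.65), Gpx5 (1.33, an epididymal glutathione peroxidase) and Fcer1a (0.592). The part of testis-marker RNA in the first 7 was not tested beyond leaving libraries out. Chow WT 4 was highest in Cd209g (55.1 CPM), Cd209f (131), Cfd (12550) and Igkv12-89 (10.8), and lowest in Lamp2 (140). Chow WT 2 was highest in Gpx3 (7579 CPM), Nqo1 (95.5) and the epididymis markers (14420).

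HFD WT 6 was highest in the hepatocyte markers (65290 CPM), Cideb (30.7), Saa1 (56.8) and Saa2 (34.9). HFD WT 1 was highest in Mmp19 (227 CPM) and Mmp12 (2589), and HFD WT 7 in Cfd (4030) and Sfrp5 (438). The remaining ones were Saa3 in HFD WT 3 (86.3 CPM), Gpx5 in HFD WT 5 (587.8 CPM) and smooth muscle and pericyte markers in HFD WT 8 (6015 CPM).

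The diet effect differed between WT and KO fat for 14 named genes in edgeR's test of the difference. On the log2 scale the WT effect exceeded the KO effect by 0.54 in Sppl2a (adjusted p = 0.0438), 4.203 in Tnnt3 (0.034), 6.48 in Saa3 (0.002), 15.72 in Gpx5 (0.0249), 10.69 in Igkv8-18 (0.013), 10.13 in Ighe (0.0151), 9.48 in Saa2 (0.0108) and 9.004 in Saa1 (0.00289). The WT minus KO difference was -1.90 in Fasn (adjusted p = 0.0328), -6.03 in Igkv12-89 (0.0363), -5.50 in Dsg1b (0.0176), -4.63 in Gpr50 (0.0121), -4.57 in Cacng5 (0.0317) and -4.32 in Mstn (0.0328). Sppl2a and Tnnt3 were also called for diet within WT, and the other 12 were not. Among HFD WT libraries Gpx5 was at 587.8 CPM in HFD WT 5 and at most 0.48 in the others. Tnnt3 was at 212 CPM in HFD WT 2 and at most 3.61 in the others. Saa1 and Saa2 were at 56.8 and 34.9 CPM in HFD WT 6 and at most 4.385 and 2.19 in the others. Chow KO 1 had 11440 summed CPM of epididymis markers. The part of other tissue in these differences was not tested beyond leaving libraries out. Fitted values of genes near 0 counts depend on the prior count. The difference was called for 0 genes once PEP392, PEP393, PEP360 and PEP587 were left out.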

How the results depend on the processing

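Counts of WT calls (233 higher and 432 lower) moved by more than 1.5 times under these settings. Both were 0 at an adjusted p under 0.01, with only the WT groups in the fit (2695 genes at an unadjusted p under 0.05), within label numbers below 450 (2527) or above 450 (832), and, for 2 alternatives chosen after seeing the data, without PEP392, PEP393, PEP360 and PEP587 (2223) or without every library high in other-tissue markers (1229). DESeq2 called 778 higher (58.6% of its calls against 35% in edgeR) and 549 lower. The 3 mice left out gave 21 and 141. With 1 library left out the range was 0 to 861 higher and 3 to 945 lower. The replicate numbers do not pair the samples (same-number correlations -0.334 to 0.183), and a replicate block gave 2 higher and 0 lower calls (2964 unadjusted). The WT minus HET difference had 0 calls with 5 in DESeq2. WT minus KO, called for 6.33% of genes, was called for 1.55% at 0.01, 3.89% with no filter, 1.56% with only the groups compared, 3.41% with the replicate block, 2.56% without the 3 mice, 2.08% to 18.2% with 1 library left out, and 0% under both alternatives added later (2437 and 1161 genes unadjusted).

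Directions turned as follows, and the cause was not tested. Without the 3 mice Nqo1 was 0.0039, Lyve1 0.083 and Cd3e -0.13. Below 450 Gpr50 was -0.060, Msln 0.40, Pecam1 0.43 and Scd1 0.46. Above 450 Col1a1 was -0.22, Creb3l4 0.29, Dsg1b 0.046, Lep -0.036, Lyve1 0.097, Npr3 -0.30, Nqo1 0.14, Tnnt3 -0.37 and Tulp2 0.89. Without PEP392, PEP393, PEP360 and PEP587 Cd3e was -0.14, Creb3l4 0.24, Dsg1b 1.28, Lyve1 0.16, Npr3 -0.070, Nqo1 0.037, Tnnt3 -0.14 and Tulp2 0.67. Without every library high in other-tissue markers Adipoq was 0.012, Cd3e -0.91, Creb3l4 0.13, Lyve1 0.36, Pecam1 0.031, Saa1 -0.44, Tnf -0.011 and Tnnt3 -0.26. With the replicate block Dsg1b was 0.48, Mstn 0.025, Pecam1 0.047 and Saa3 0.050. DESeq2 gave Gpx5 -1.55 and Tnnt3 -0.12. With 1 library left out Ccdc116 ran from -3.90 to 0.70, Col1a1 from -0.050 to 0.57, Creb3l4 from -2.05 to 0.56, Dsg1b from -0.55 to 1.71, Gpx5 from -1.49 to 9.10, Lyve1 from -0.20 to 0.046, Npr3 from -0.095 to 0.27, Nqo1 from -2.13 to 0.025, Pecam1 from -0.22 to 0.23, Scd1 from -0.28 to 0.12, Sfrp5 from -0.049 to 0.61, Tnnt3 from -0.16 to 3.82 and Tulp2 from -3.90 to 0.79.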

Other observations

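Antibody genes were uneven between mice: the 12 plasma cell markers summed to 18230 CPM in HFD WT 2 and to 1646 to 3895 CPM in the other 11 WT libraries. All 10 MHC class II genes, whose proteins present antigen, had a positive log2 fold change (median 0.475), with 0 called. Without the 3 mice their median was 0.00138, again with 0 called, and that of the 24 macrophage markers was 0.514. The difference between these lists was not tested. Breakdown of branched-chain amino acids, a pathway active in adipocytes, had 0 calls of 19 and a median of -0.187, with 15 negative. In HET 18 of the 19 fell, but the WT minus HET difference was called for 0 genes. Cholesterol synthesis had 0 calls of 19 and a median of 0.221, and 12 of its genes rose in KO. Of 27 interferon-stimulated genes 0 were called in WT (median 0.232), and 26 fell in KO. The WT minus KO difference was called for 23 of these 27, all with the higher effect in WT, against 4.66% of all genes. It was called the same way for 9 of 10 MHC class II genes, 9 of 12 MHC class I genes and 11 of 11 B cell markers. Without PEP392, PEP393, PEP360 and PEP587 it was called for 0% of all genes. Over all genes tested 18.8% fell in HET, while 15% rose and 20.6% fell in KO. The median summed level of the interferon list was 2395 CPM in chow KO and 873 in HFD KO. In WT it was 878 CPM on chow and 954 on HFD.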
